A study of Drosophila melanogaster with 9 samples.

Results

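The genes described here are 8 Drosophila genes of neurosecretory cells and of amine signaling: dimm, Tbh, Phm, amon, ple, Ddc, Vmat and Tdc2. They are 8 of the 18277 annotated genes considered. dimm and Tbh were picked on their measured values, a strong promoter peak in ovarian somatic cells (OSCs) and none in ovary, so for these 2 genes that difference is a description and was given no test. The other 6 were included because their products act in the same peptide and amine pathways. For each gene, all called peaks of open chromatin between 2 kb before its start and 2 kb past its end were taken.

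The study assayed chromatin accessibility by ATAC-seq, in which the Tn5 transposase inserts adapters into open DNA, in 9 libraries. The Δl(3)mbt OSC group (2 libraries) was a female OSC line with the chromatin repressor gene l(3)mbt deleted, and the wild-type OSC group (2 libraries) was the OSC line without that deletion; each genotype was 1 purchased line. The vas-GFP ovary group (3 libraries, of 6, 10 and 30 ovaries) came from flies carrying a degron and GFP tag at vas, and the w1118 ovary group (2 libraries, of 6 ovaries each) came from the w1118 strain. OSCs are a cultured line of ovarian somatic origin, whereas a whole ovary holds germ cells together with several somatic cell types, so fewer cells of a type and less open chromatin per cell cannot be told apart in the ovary libraries. The flies' age was not given in the sources used here, and the labels do not say whether replicates came from separate cultures or animals.

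In flies, neurosecretory cells load peptide hormones into dense core vesicles. The bHLH factor Dimmed (dimm) promotes that secretory state, the prohormone convertase encoded by amon cleaves the precursors, and Phm carries out the first step of their C-terminal amidation. Amine neurons use a related set of enzymes: ple (tyrosine hydroxylase) and Ddc (dopa decarboxylase) make dopamine, Tdc2 (tyrosine decarboxylase) makes tyramine, Tbh (tyramine β-hydroxylase) converts tyramine to octopamine, and Vmat loads amines into vesicles. In the fly ovary octopamine released from neurons is known for its part in ovulation, and its receptor Oamb acts there in follicle and oviduct cells.

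The 300 bases before the first transcription start site (TSS) are shown for the 4 genes whose promoter peaks carried the contrasts below, 5′ to 3′ on the gene's own strand. Capitals mark bases inside the strongest promoter peak of all 4 OSC libraries (dimm, Tbh and amon) or of all 5 ovary libraries (ple). Weaker peaks were not marked. Sequence and coordinates are from the RefSeq copy of dm6.
dimm upstream (chr2L:21331456-21331755, plus strand): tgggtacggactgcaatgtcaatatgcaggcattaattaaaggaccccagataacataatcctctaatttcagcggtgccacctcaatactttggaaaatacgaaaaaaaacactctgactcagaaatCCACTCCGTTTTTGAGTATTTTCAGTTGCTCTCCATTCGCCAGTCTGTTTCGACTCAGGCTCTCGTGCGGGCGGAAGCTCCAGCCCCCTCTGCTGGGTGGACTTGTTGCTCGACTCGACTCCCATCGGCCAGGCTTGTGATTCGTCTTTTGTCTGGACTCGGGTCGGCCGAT
Tbh upstream (chrX:7995397-7995696, plus strand): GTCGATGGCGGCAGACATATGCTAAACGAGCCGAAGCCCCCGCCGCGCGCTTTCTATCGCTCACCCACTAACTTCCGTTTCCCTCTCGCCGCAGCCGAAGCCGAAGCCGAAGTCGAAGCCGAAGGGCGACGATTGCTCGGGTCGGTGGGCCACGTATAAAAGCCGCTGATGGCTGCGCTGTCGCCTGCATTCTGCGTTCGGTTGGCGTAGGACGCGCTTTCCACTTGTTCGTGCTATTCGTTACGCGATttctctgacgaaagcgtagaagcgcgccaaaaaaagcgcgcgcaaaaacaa
amon upstream (chr3R:26714160-26714459, minus strand): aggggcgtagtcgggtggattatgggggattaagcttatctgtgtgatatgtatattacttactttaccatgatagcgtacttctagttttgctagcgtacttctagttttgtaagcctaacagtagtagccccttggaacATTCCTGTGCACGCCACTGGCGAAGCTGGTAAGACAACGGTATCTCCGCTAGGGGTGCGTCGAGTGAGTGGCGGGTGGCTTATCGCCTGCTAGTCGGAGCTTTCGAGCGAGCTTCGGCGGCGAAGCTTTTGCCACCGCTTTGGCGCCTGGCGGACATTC
ple upstream (chr3L:6719526-6719825, minus strand): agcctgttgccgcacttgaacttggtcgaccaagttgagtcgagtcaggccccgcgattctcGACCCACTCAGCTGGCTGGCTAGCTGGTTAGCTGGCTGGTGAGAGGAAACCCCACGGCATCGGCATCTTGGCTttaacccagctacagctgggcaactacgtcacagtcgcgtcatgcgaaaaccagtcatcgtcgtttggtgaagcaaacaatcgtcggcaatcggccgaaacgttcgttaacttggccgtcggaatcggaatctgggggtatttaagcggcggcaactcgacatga
Within the 300 bases, 172 bases of dimm, 249 of Tbh and 159 of amon were in the strongest promoter peak of every OSC library. For ple, 73 bases were in the strongest promoter peak of every ovary library. GC content was 49.7% for dimm, 58.7% for Tbh, 52.3% for amon and 56% for ple.

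Motifs were searched on both strands, with positions counted back from the base before the TSS as -1. The E-box CATATG, of the kind bound by Dimmed in flies, was found at -285 of Tbh, inside its peak, and in no other of the 8 upstream windows. It was present in 8.41% of the upstream windows of all 18277 genes. The general E-box CANNTG, which includes CATATG, was present in 74.9% of all windows. It lay at -150 of dimm, at -285 and -79 of Tbh, at -271 and -130 of Phm, and at -288, -230 and -153 of ple. No match was found for amon, Ddc, Vmat or Tdc2. GAGAG, the core of the GAGA factor site, was found at -144 and -113 of dimm, -218 of Tbh, -198 of ple and -129 of Ddc, against 28.6% of all windows. CCGTTA, the top-scoring Ovo motif in the paper, was found in none of the 8 windows and in 7.82% of all windows. TATCGATA, the DRE, was likewise found in none of the 8 and in 6.94% of all windows. The authors also count CNGTTA as an Ovo motif and name the shorter CCGTT as its core. Neither CNGTTA nor CCGTT was part of the search. In the sequences above CCGTT can be read inside the capitals of dimm and Tbh and, on the opposite strand, of amon. The printed ple sequence does not hold it. The windows of Phm, Ddc, Vmat and Tdc2 were not read for it. Its share over all windows was not counted, so these matches cannot be set against a background. These are matches of letters and not sites of binding.

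A promoter value below is the highest fold enrichment of any peak that reached within 1 kb of an annotated TSS of the gene. Fold enrichment is the peak caller's ratio of read pileup at the summit to a local background in the same library, which can differ between loci. A value of 0 means that no peak was called there. The deposited lists held 22037 to 59420 peaks in the OSC libraries and 16588 to 24890 in the ovary libraries, and wild-type OSC replicate 1 stood apart with 59420 peaks. The most frequent background pileup was 8.93 to 19.1 in OSC and 3.09 to 6.68 in ovary libraries. At this background a peak needed a fold enrichment of 1.64 to 2.12 to be called in OSC and of 2.08 to 2.69 in ovary. Median fold enrichment over all peaks was 2.32 to 3.68 in OSC and 5.17 to 5.31 in ovary, and the median gene had a promoter difference of -0.34 on the log2 scale (OSC minus ovary). Fold enrichments are therefore not on 1 scale across materials, and percentile ranks within each library's own list are given beside the values where a call depended on it. As a check of the labels, 10 of 10 follicle cell and OSC markers had a promoter peak in all OSC libraries and 9 in all ovary libraries. Of 8 germ cell markers, 5 to 6 had a promoter peak in each OSC library and 8 in each ovary library. vas, ovo and BicC had one in all 9 libraries, and AGO3 had none in any OSC library, so germline markers separated the materials only in part. Of 16 neuronal markers, 6 to 14 had a promoter peak in an OSC library and 5 in each ovary library, with a summed fold enrichment of 38.9 to 75.2 in OSC and 54.7 to 65.6 in ovary. Their relation to the values of the 8 genes was not tested. The l(3)mbt promoter had a peak in all 9 libraries, including 4.01 and 6.30 in Δl(3)mbt OSCs, and since the extent of the deletion was not given this does not check the genotype.

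**Figure D1:**
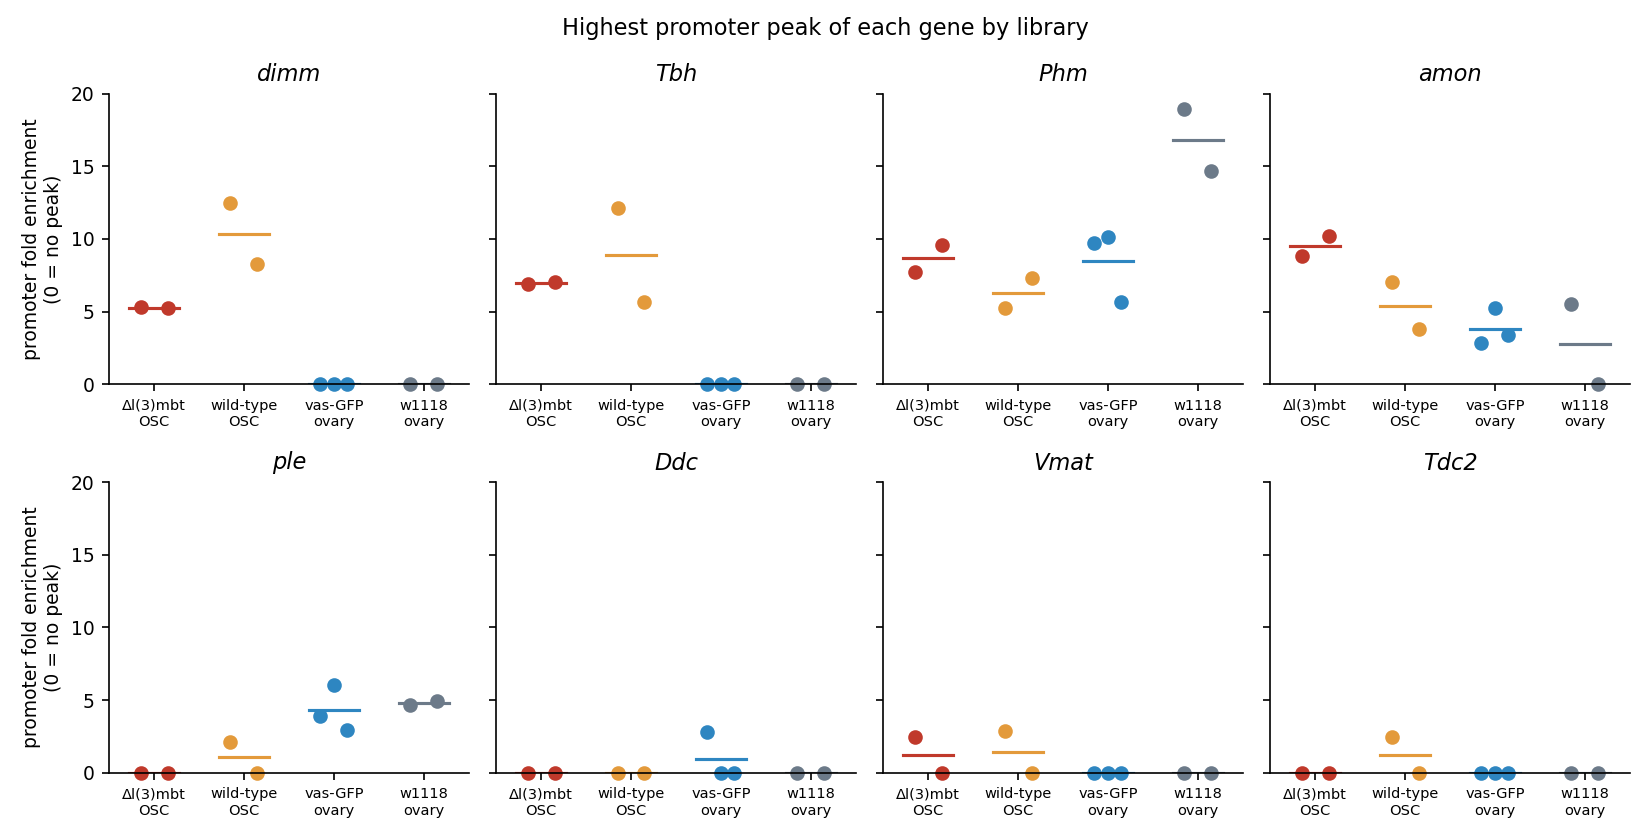
Promoter fold enrichment (vertical axis) of the 8 genes in each of the 9 libraries, ordered Δl(3)mbt OSC, wild-type OSC, vas-GFP ovary and w1118 ovary; each point is 1 library, each horizontal bar is the group mean, and 0 means no called peak. dimm and Tbh had values of 5.24 to 12.5 and 5.64 to 12.1 in the 4 OSC libraries and 0 in the 5 ovary libraries, whereas Phm had a peak in all 9.

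Open chromatin at the start of the neurosecretory regulator gene dimm (FBgn0023091, chr2L:21331756-21342155, plus strand) was seen in OSCs of both genotypes and in no ovary library. Its promoter fold enrichment was 5.32 and 5.24 in Δl(3)mbt OSCs and 12.5 and 8.24 in wild-type OSCs, against 0 in all 3 vas-GFP and both w1118 ovary libraries. The groups of OSC and ovary values did not overlap, by the way the gene was picked. The peak reached a −log10 q of 39.4 and 25.1 in Δl(3)mbt OSCs and of 178 and 47.1 in wild-type OSCs. Its summit lay 68, 110, 66 and 110 bases before the first of the 2 TSSs in the 4 libraries in the same order, inside the capitals of the dimm sequence above. A second, weaker peak 713 to 780 bases before that TSS was called in Δl(3)mbt replicate 2 (2.74) and in both wild-type libraries (3.23 and 2.55). Near the second TSS, over a coding exon, the highest OSC peaks reached 2.32 in Δl(3)mbt replicate 1 and 2.83 in wild-type replicate 1. In the peak lists the authors called on merged replicates, the promoter value was 5.17 in Δl(3)mbt OSCs and 11.3 in wild-type OSCs, and neither ovary list held a dimm promoter peak.

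Octopamine synthesis is represented by Tbh (FBgn0010329, chrX:7995697-8027394, plus strand), and its promoter had the same pattern. Fold enrichment was 6.87 and 7.02 in Δl(3)mbt OSCs and 12.1 and 5.64 in wild-type OSCs, against 0 in all 5 ovary libraries. Summits lay 144 bases before the first TSS in replicate 1 of each genotype and 304 and 309 bases before it in replicate 2 of Δl(3)mbt and of wild type. The peak was one broad interval in each library that held both positions. A separate upstream peak 545 to 658 bases before the TSS had values of 2.43 and 4.19 in Δl(3)mbt OSCs and 2.93 and 2.92 in wild-type OSCs. Within the gene, an intronic peak about 16.9 kb past the TSS was called in both wild-type libraries (4.42 in replicate 1 and 2.72 in replicate 2) and in neither Δl(3)mbt library. Wild-type replicate 2 had a separate peak of 3.53, 17158 bases past the TSS, inside the span of the replicate 1 peak. In all, Tbh and its flanks held 3 and 4 peaks in Δl(3)mbt OSCs, 23 and 6 in wild-type OSCs, and 0 in each ovary library. The 23 came from the library with 59420 peaks, and a difference in peak number between genotypes was not tested. The authors' merged lists gave the Tbh promoter 6.79 in Δl(3)mbt OSCs and 10.3 in wild-type OSCs, and no Tbh peak in either ovary list.

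dimm and Tbh were 2 of 432 genes with a promoter peak in all 4 OSC libraries and in no ovary library, which is 2.79% of the 15484 genes with a promoter peak in any library. The reverse pattern, all 5 ovary and no OSC library, was found for 123 genes (0.794%) and for none of the 8 genes. Ranked by mean OSC fold enrichment among the 432, Tbh was 25th (7.91) and dimm 29th (7.82). The genes whose 9 log2 promoter values lay nearest to those of dimm, by Euclidean distance, were Cpr72Eb (0.75), Tbh (0.783), CG42402 (0.802), Osi6 (0.824) and CG8292 (0.848). Those nearest to Tbh were Osi6 (0.498), CG9164 (0.517), lncRNA:CR44747 (0.553), lncRNA:CR45610 (0.614) and lncRNA:CR45755 (0.624). All of them had a peak in every OSC library and none in any ovary library, and the distances rest on 9 libraries.

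Of the 6 genes not picked on this contrast, none was called higher in OSC than in ovary and 1, ple, was called lower, against 3.75% (580) and 30.3% (4687) of the 15484 genes tested. The test was an exact two-sided permutation test over the 4 OSC and 5 ovary libraries on log2 fold enrichment, with Benjamini-Hochberg adjustment over all genes tested and no peak set to 0 on the log2 scale. The smallest p it can give is 0.00794. Without any 1 of 7 libraries (Δl(3)mbt replicate 1, wild-type replicate 2 and each ovary library) no gene passed the adjusted threshold, and the counts at an unadjusted p below 0.05 in that exact test were then 649 to 989 higher and 4670 to 6304 lower. Counted by library, the number of the 8 genes with a promoter peak was 5 and 4 in Δl(3)mbt OSCs, 7 and 4 in wild-type OSCs, 4, 3 and 3 in vas-GFP ovaries, and 3 and 2 in w1118 ovaries. Without dimm and Tbh, whose choice fixes part of that difference, it was 3 and 2 of 6 in Δl(3)mbt OSCs, 5 and 2 in wild-type OSCs, 4, 3 and 3 in vas-GFP ovaries, and 3 and 2 in w1118 ovaries. Over all genes, 9687 to 14581 promoters had a peak in an OSC library and 8400 to 10223 in an ovary library. The scale bore on the direction of the calls. On percentile ranks no gene was called, and at an unadjusted p below 0.05 that exact test gave 3648 genes higher and 1067 lower in OSC, compared with 1263 higher and 6050 lower on log2 fold enrichment.

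The 2 peptide-processing enzymes had promoter peaks in both materials. Phm (FBgn0283509, chr2R:23985175-23988455, minus strand) had 7.7 and 9.61 in Δl(3)mbt OSCs and 5.23 and 7.31 in wild-type OSCs, against 9.69, 10.1 and 5.66 in vas-GFP ovaries and 18.9 and 14.7 in w1118 ovaries. OSC and ovary values overlapped, with a log2 difference of -0.58 (2.87 ± 0.362 in OSC, SD, n = 4, and 3.45 ± 0.661 in ovary, SD, n = 5) and an exact permutation adjusted p of 0.257. The direction turned with the scale: the OSC mean of Phm was above the ovary mean by percentile (adjusted p = 0.346, exact permutation test) and by 0.44 on log2 of 1 plus the −log10 q (adjusted p = 0.736), and none of the 3 differences was called. Its percentiles were 96.7 and 95.8 in Δl(3)mbt OSCs and 93 and 91.8 in wild-type OSCs, against 81.2, 84.7 and 56.5 in vas-GFP ovaries and 97.7 and 93.9 in w1118 ovaries. Its summit lay within 37 bases of the TSS in every library. A peak in all 9 libraries was found for 46.8% of genes. The TSS of Pask is 283 bases away, so the Phm window also covers the start of that gene.

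amon (FBgn0023179, chr3R:26697697-26714159, minus strand) had 8.81 and 10.2 in Δl(3)mbt OSCs and 7 and 3.83 in wild-type OSCs, against 2.81, 5.22 and 3.37 in vas-GFP ovaries and 5.54 and 0 in w1118 ovaries. Every OSC library except wild-type replicate 2 was above every ovary library, and that replicate lay among the ovary values. The log2 difference was 1.19 (2.81 ± 0.625 in OSC, SD, n = 4, and 1.62 ± 0.996 in ovary, SD, n = 5), with an exact permutation adjusted p of 0.142. By percentile, amon ranked at 98.3 and 96.9 in Δl(3)mbt OSCs and at 96.5 and 52.9 in wild-type OSCs, against 9.25, 50.6 and 13.2 in vas-GFP ovaries and 53.3 and no peak in w1118 ovaries. In OSCs the summit lay 94 to 108 bases before the TSS, and a further peak 322 to 345 bases before it had 6.17 in Δl(3)mbt replicate 2, and 3.92 and 2.52 in the wild-type libraries. In Δl(3)mbt replicate 1 a single 797-base peak covered both positions.

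The dopamine enzymes ple and Ddc had little or no promoter signal in OSCs. ple (FBgn0005626, chr3L:6713356-6719525, minus strand) had 0 and 0 in Δl(3)mbt OSCs and 2.13 and 0 in wild-type OSCs, against 3.91, 6.03 and 2.93 in vas-GFP ovaries and 4.69 and 4.93 in w1118 ovaries. Every ovary library was above every OSC library, and ple was lower in OSC by a log2 difference of -1.85 (0.274 ± 0.547 in OSC, SD, n = 4, and 2.13 ± 0.391 in ovary, SD, n = 5; exact permutation adjusted p = 0.0285). The call was lost without any 1 of those 7 libraries, with adjusted p of 0.0527 to 0.0831 in the same permutation test, and on percentile ranks (adjusted p = 0.175). It was also lost with the same number of peaks per library (log2 difference -1.29, adjusted p = 0.239), with peaks of a −log10 q of at least 10 (-1.42, adjusted p = 0.272), on the −log10 q scale (adjusted p = 0.168), and in exact permutation tests with wild-type OSCs only (adjusted p = 0.121) or w1118 ovaries only (adjusted p = 0.143). In all, 14 of 23 alternatives lost it, and the adjusted p over the 23 ran from 0.00072 (limma) to 0.272. Of the 14, only equal peak numbers and the stricter −log10 q still called genes elsewhere (4941 and 4642). In the rest no gene passed, so the loss there was not particular to ple. With w1118 ovaries only, the smallest p of the exact test was 0.0667, so no call was possible. In wild-type replicate 1 the ple peak ranked at percentile 36.5, against 31.2, 59.7 and 5.37 in vas-GFP ovaries and 44 and 45.6 in w1118 ovaries. Past the 3′ end of ple, a second ovary peak 7718 to 7737 bases from the TSS had 3.75 and 4.02 in vas-GFP replicates 1 and 2 and 3.39 and 4.93 in the w1118 libraries, and no OSC library had it.

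Ddc (FBgn0000422, chr2L:19116483-19120306, minus strand) had no promoter peak in any OSC library and 1 in the ovary libraries, of 2.81 in vas-GFP replicate 1. Its adjusted p was 1 in the exact permutation test. The authors' merged lists held a Ddc promoter peak in both ovary groups, 2.08 in vas-GFP and 2.35 in w1118, and in neither OSC group. OSC peaks inside the 2 kb flanks of Ddc lay over the neighboring genes CG10561 and Phb1, and those inside the gene lay over a coding exon (2.48 in wild-type replicate 1 and 2.37 in replicate 2).

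For Vmat (FBgn0260964, chr2R:13513132-13534251, minus strand, 3 TSSs) a promoter peak was called in replicate 1 of each OSC genotype, 2.43 in Δl(3)mbt and 2.88 in wild type, and in no other library. The log2 difference was 0.70 with an exact permutation adjusted p of 0.257. A stronger peak 1829 to 1839 bases before its first TSS lay over the tRNA gene tRNA:Lys-CTT-1-10, with 4.92 in Δl(3)mbt replicate 2, against 5 and 7.33 in vas-GFP replicates 1 and 3 and 8.99 and 8.28 in w1118 ovaries. The tyramine enzyme Tdc2 (FBgn0050446, chr2R:6684745-6689974, minus strand), which lies inside Rpp25, had a promoter peak only in wild-type OSC replicate 1 (2.48), with a log2 difference of 0.33 and an exact permutation adjusted p of 0.504. Both libraries that alone among OSCs gave Vmat promoter peaks were the OSC libraries with the most peaks.

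Away from promoters, the highest fold enrichment anywhere in a gene and its 2 kb flanks was compared in the same way. Tdc2 had 1.91 and 0 in Δl(3)mbt OSCs and 3.23 and 0 in wild-type OSCs, against 5.63, 9.85 and 4.15 in vas-GFP ovaries and 9.64 and 13.5 in w1118 ovaries. Each ovary library had a Tdc2 intron peak with its summit 3791 or 3792 bases past the TSS, and no OSC library had a peak there. The log2 difference was -2.32 (exact permutation adjusted p = 0.0237), against 37.8% of 17113 genes called lower and 3.63% called higher on this measure. ple (-1.35, adjusted p = 0.0383) and amon (-1.59, adjusted p = 0.0237) were also called lower in that exact test. Without any 1 of the 5 ovary libraries (each vas-GFP and each w1118 replicate) the calls of Tdc2 and amon were lost, with adjusted p of 0.0531 to 0.0681. The smallest p of the exact test was then 0.0286, and no gene passed the adjusted threshold, so that loss was not particular to Tdc2 and amon. ple lost its call without any 1 library except wild-type OSC replicate 1, with adjusted p of 0.0531 to 0.117. With peaks of a −log10 q of at least 10, the calls of ple (adjusted p = 0.41) and Tdc2 (adjusted p = 0.121) were lost as well. In the same exact test Phm (-0.58), Ddc (1.08) and Vmat (-0.92) were not called (adjusted p of 0.229, 0.0649 and 0.391). When promoter peaks were left out, ple was no longer called (-0.81, adjusted p = 0.309) and Ddc was called higher in OSC (1.37, adjusted p = 0.0349). The Ddc values came from flank peaks over CG10561 (2.35 and 2.85 in replicate 1 of Δl(3)mbt and wild type) and Phb1 (2.84 in Δl(3)mbt replicate 2). Only wild-type replicate 2 (2.37) had its highest peak inside Ddc. At background an ovary peak needed 2.08 to 2.69 to be called, close to these values.

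The lower value of amon, and a like one of dimm, rested on intronic peaks 93 bases wide with the same borders in all 5 ovary libraries. The dimm peak had 22.5, 19.1 and 19.6 in vas-GFP ovaries and 17.2 and 16.3 in w1118 ovaries, higher than any OSC promoter value of that gene. The amon peak had 26.7, 25.7 and 17.8 in vas-GFP ovaries and 16 and 21 in w1118 ovaries. No OSC library had a peak at either position. Both intervals are printed because they carry the highest ovary values of these genes; capitals span the summits of the 5 ovary libraries.
dimm intron (chr2L:21335946-21336038, plus strand): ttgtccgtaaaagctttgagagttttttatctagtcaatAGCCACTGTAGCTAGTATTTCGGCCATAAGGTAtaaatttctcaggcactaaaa
amon intron (chr3R:26705002-26705094, minus strand): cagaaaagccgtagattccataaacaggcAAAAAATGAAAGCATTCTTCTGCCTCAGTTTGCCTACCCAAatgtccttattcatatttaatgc
Their GC content was 35.5% for dimm and 37.6% for amon, neither overlapped an annotated transposable element, and their summits lay 4229 to 4261 and 9094 to 9134 bases past the TSS. Over the whole genome 502 peaks had identical borders in all 5 ovary libraries, 346 of them 93 bases wide, and 467 of the 502 had no OSC peak. In the 4 OSC libraries 2 peaks had identical borders in all. What made these borders identical was not tested. With all such peaks left out, an alternative chosen after seeing the data, amon had a log2 difference of 1.19 (adjusted p = 0.122, exact permutation test) and dimm one of 2.87.

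**Figure D2:**
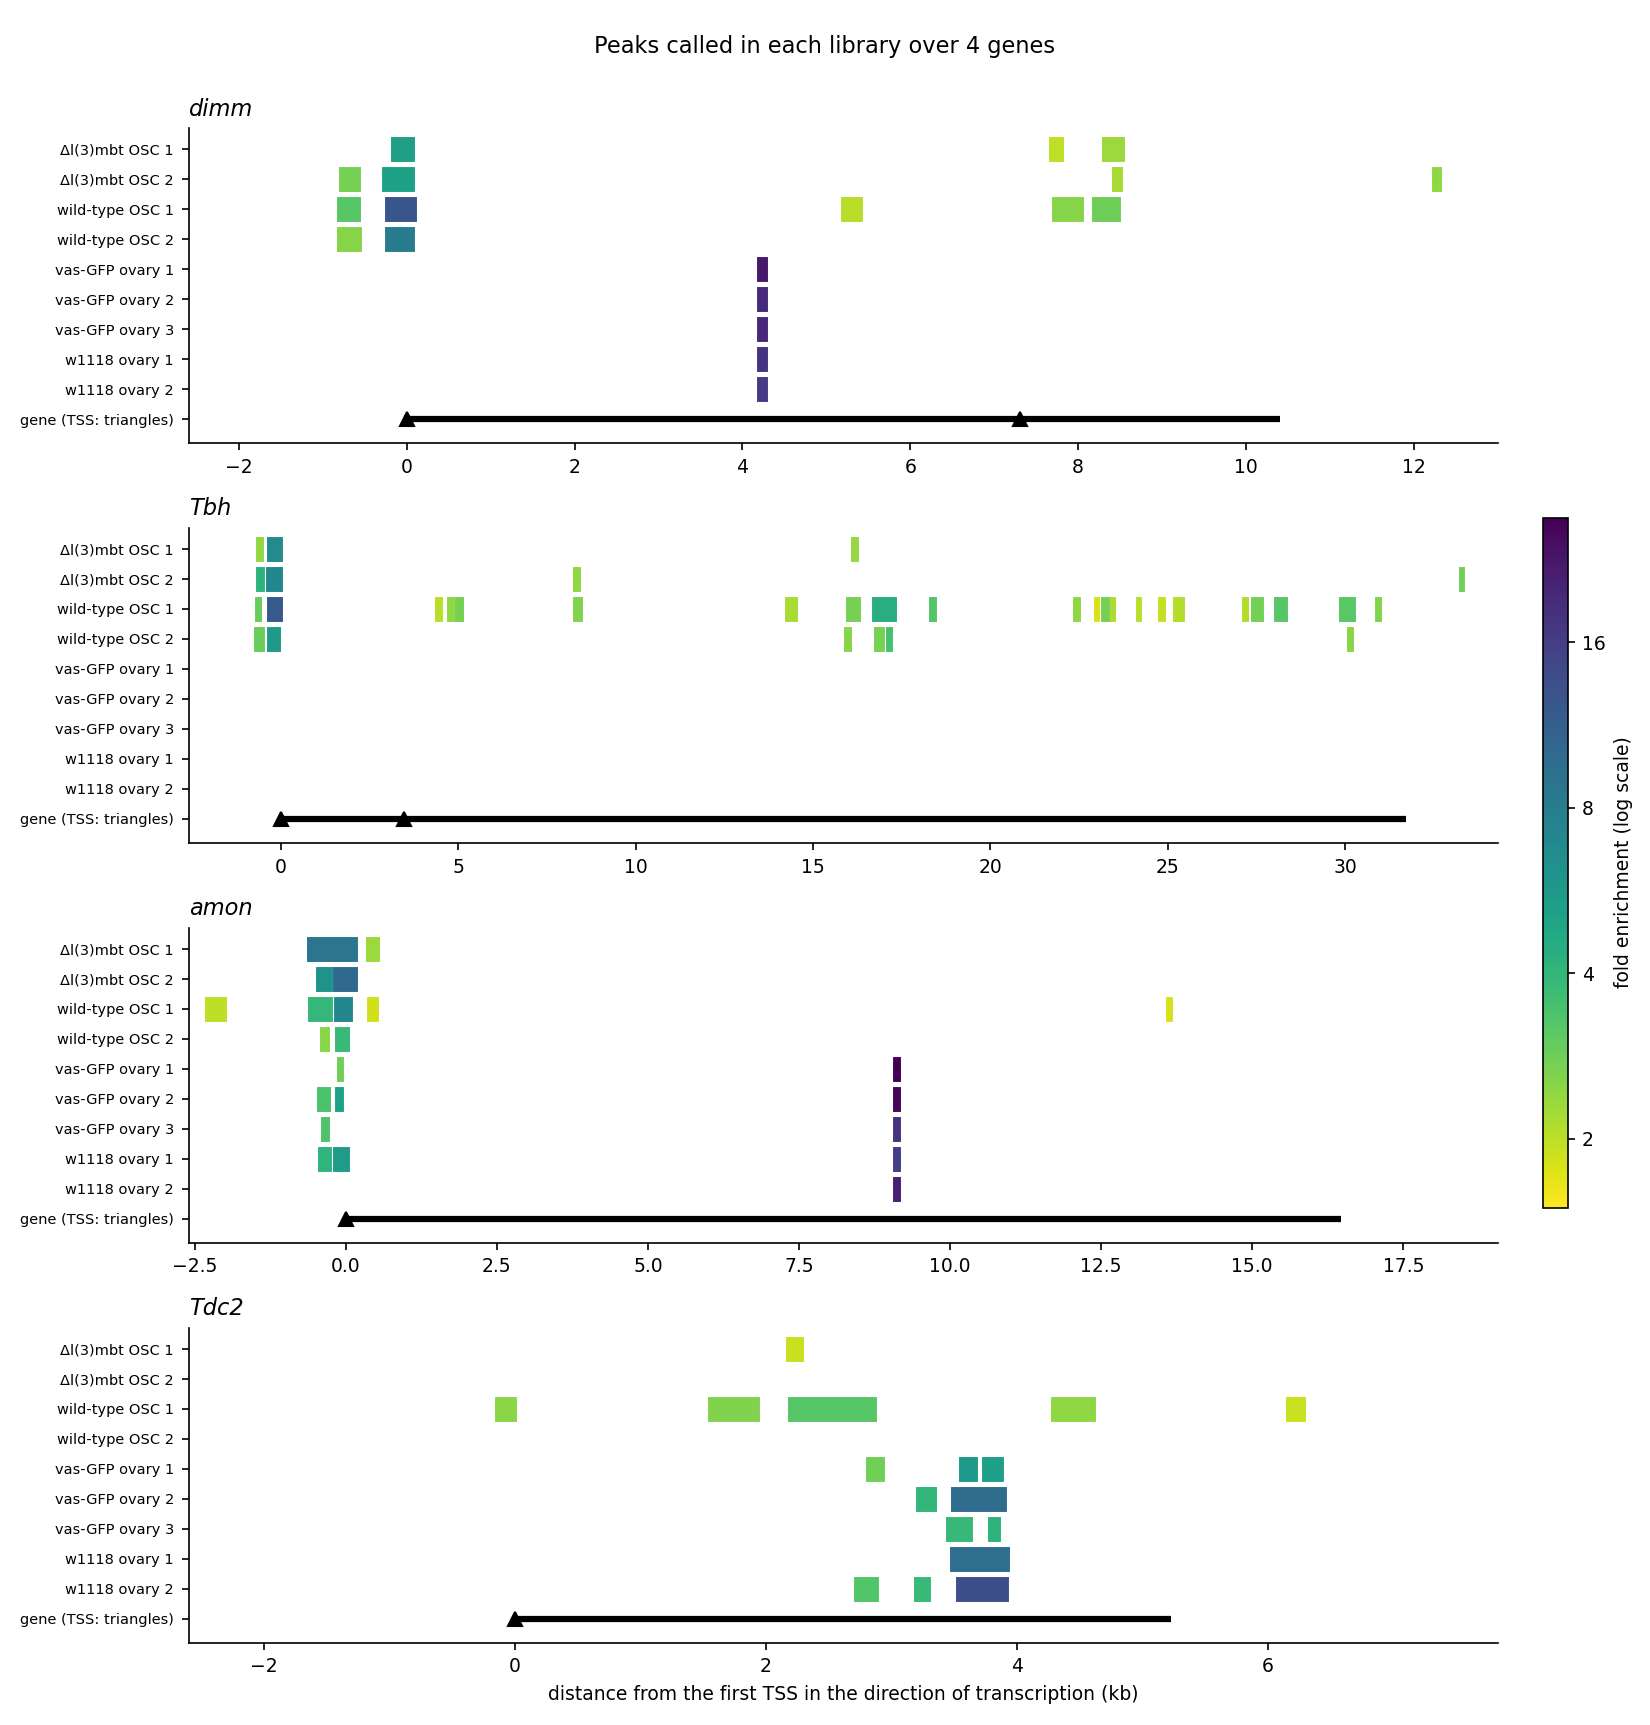
Called peaks over dimm, Tbh, amon and Tdc2, with distance from the first TSS (kb, in the direction of transcription) on the horizontal axis and 1 line per library from Δl(3)mbt OSC at the top to w1118 ovary at the bottom; color gives fold enrichment. OSC peaks stood at the start of dimm and Tbh, and the 93-base ovary peaks lay in the introns of dimm and amon.

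Between the OSC genotypes, both Δl(3)mbt libraries were below both wild-type libraries at dimm (5.32 and 5.24 against 12.5 and 8.24, a ratio of 0.521 of the geometric means of fold enrichment). Both were above at amon (8.81 and 10.2 against 7 and 3.83, a ratio of 1.84) and at Phm (7.7 and 9.61 against 5.23 and 7.31, a ratio of 1.39). Tbh overlapped between genotypes. These values depend on the local background. At the strongest amon peak it was 1.59 and 1.56 times the most frequent background in Δl(3)mbt OSCs, and equal to it in wild-type OSCs. For Phm it was 1.47 and 1.31 times in Δl(3)mbt and 1.64 and 1.21 times in wild-type OSCs. The part of local background in the ratios was not tested. Among 15042 genes with an OSC promoter peak, 3.80% had both Δl(3)mbt libraries below both wild-type libraries and 12.0% had both above, so that 1 and 2 of 8 genes are read against those shares. The ranks had the same order: dimm was at percentile 88.8 and 72 in Δl(3)mbt and at 99.6 and 95.7 in wild type, Phm at 96.7 and 95.8 against 93 and 91.8, and amon at 98.3 and 96.9 against 96.5 and 52.9. With 2 libraries a group the smallest p of an exact permutation test is 0.333, so no test was made. Between ovary genotypes, all 3 vas-GFP libraries were below both w1118 libraries at Phm, as at 40.4% of 10857 genes, and the other 7 genes overlapped or had no peak.

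**Figure D3:**
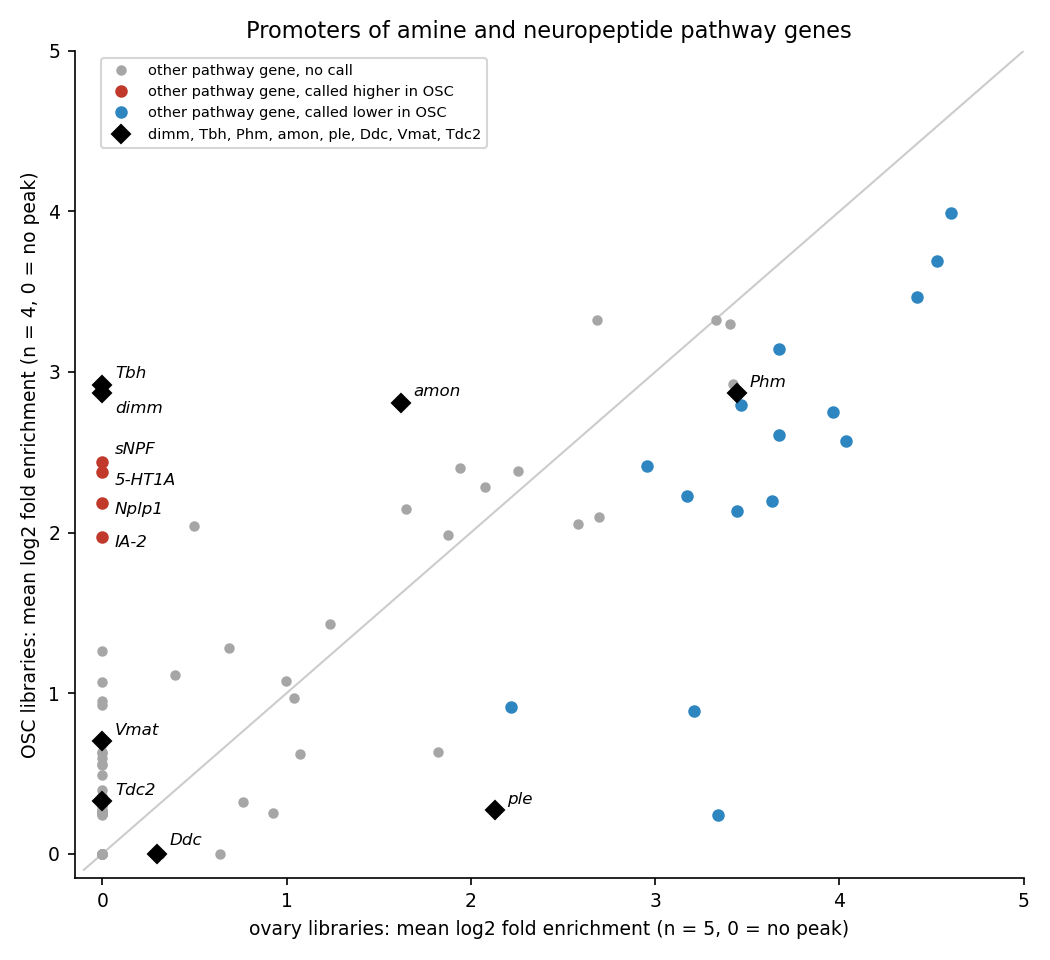
Mean promoter log2 fold enrichment in OSC (vertical) against ovary (horizontal) for the 8 genes and the other pathway genes; each point is 1 gene, averaged over 4 OSC and 5 ovary libraries, with 0 for no peak. Diamonds are the 8 genes, circles the other genes (red called higher in OSC, blue called lower, gray not called), and the line marks equal values. dimm and Tbh stand at 0 on the ovary axis, with IA-2, 5-HT1A, Nplp1 and sNPF below them and Vmat and Tdc2 lower still.

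The other genes of these pathways were taken from lists of amine synthesis, peptide processing, amine receptors, neuropeptides and neuroendocrine transcription factors. Of 81 such genes matched to the annotation, 71 had a promoter peak in some library, 4 were called higher in OSC (5.63%) and 15 lower (21.1%), against 3.75% and 30.3% of all genes. Their median log2 difference was 0.25, against -0.34 over all genes, and 19 had a peak in all 9 libraries. A single weak peak in the library with 59420 peaks gave the same difference: Capa (0.25) had only 1.99, in wild-type OSC replicate 1. The part of such genes in the median was not tested. All 4 that were higher had a peak in every OSC library and none in any ovary library (exact permutation adjusted p = 0.0285 each). The 4 were IA-2, a dense core vesicle protein, with 3.17 and 4.84 in Δl(3)mbt OSCs and 4.04 and 3.83 in wild-type OSCs. The serotonin receptor gene 5-HT1A had 4.85 and 8.06 in Δl(3)mbt and 4.17 and 4.43 in wild-type OSCs. Among neuropeptide precursor genes, Nplp1 had 4.13 and 4.92 in Δl(3)mbt and 4.32 and 4.83 in wild-type OSCs, and sNPF had 4.23 and 7.34 in Δl(3)mbt and 4.62 and 6.04 in wild-type OSCs. No pathway gene had the reverse pattern.

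Among amine receptors, 4 of 14 with a peak were lower in OSC and 1 was higher, against 30.3% and 3.75% of all genes tested. The octopamine receptor gene Oamb had 3.46 and 0 in Δl(3)mbt OSCs and 3.38 and 0 in wild-type OSCs, against 8.13, 9.64 and 9.53 in vas-GFP ovaries and 8.6 and 10.5 in w1118 ovaries (log2 difference -2.32, exact permutation adjusted p = 0.0285). Octbeta2R, another octopamine receptor gene, had 5.53 and 7.18 in Δl(3)mbt OSCs and 8.24 and 3.83 in wild-type OSCs, against 15 to 17.9 over the 5 ovary libraries (-1.46, adjusted p = 0.0285 in that exact test). The serotonin receptor genes 5-HT2A (-3.10) and 5-HT7 (-1.31) were lower too. These 4 receptors kept their direction on percentile ranks.

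The counts of the remaining lists are read against the same shares, 3.75% higher and 30.3% lower of all genes tested. Of peptide-processing genes other than Phm and amon, 1 of 8 was higher and 2 were lower, svr (-1.44), a carboxypeptidase D gene, and Pal1 (-1.07), a gene of the second step of amidation. The ovary values of Pal1 (9.15 to 18.2) were identical in every library to those of the muscle marker Mef2 on the same chromosome arm. Mef2 was not called (-0.23, exact permutation adjusted p = 0.504), so the ovary peaks were not particular to Pal1. In amine synthesis 1 of 8 was lower, speck (-0.95), an arylalkylamine N-acetyltransferase gene, and in neuropeptides 2 of 30 were higher and 1 was lower, the ion transport peptide gene ITP (-1.31). Of 11 transcription factor genes, none was higher and 7 were lower, among them hth (-0.84), en (-0.96) and eya (-1.21), all with peaks in all 9 libraries. eya was also among the follicle cell and OSC markers. On percentile ranks, 6 of the 15 lower genes (speck, hth, sqz, Eip74EF, chn and ap) had the opposite sign, and no gene was called on that scale, so their direction depended on the scale.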

How the data were processed

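ATAC-seq was done on 2 Δl(3)mbt OSC, 2 wild-type OSC, 3 vas-GFP ovary and 2 w1118 ovary libraries. The authors trimmed reads with cutadapt 1.18, aligned them to dm6 with BWA, removed duplicates with Picard 2.9.0 and SAMtools 1.9, and called peaks without a control library in MACS2 2.1.1.20160309 at q of 0.05 or less. The deposited peak lists give −log10 q and fold enrichment, a ratio of pileup to local background in the same library with no scaling between libraries. The authors called 4 further lists on merged replicates. A peak that was not called has no value, and a deeper library calls weaker peaks. In a random sample of peaks from each library, pileup and background were recovered from the deposited ratio and −log10 p for 98.7% to 100%. The authors' table of Δl(3)mbt against wild-type regions, with log2 fold changes and false discovery rates, was not used.

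Peaks were joined to Ensembl 115 genes (TSS ± 1 kb; gene ± 2 kb) and the highest fold enrichment was taken, as log2, with 0 for no peak. Groups were compared by exact permutation tests in NumPy 2.4.6 and SciPy 1.17.1, adjusted by Benjamini-Hochberg at 0.05 and tested on simulated data, and limma 3.58.1 was an alternative. Replicate numbers follow the labels. Peak names inside the replicate 2 files carry the number 4 in Δl(3)mbt and 3 in wild-type OSCs, so the numbers were not taken to pair samples. The genes named are the 8 members, the 5 genes nearest each of dimm and Tbh, pathway genes that were called, and some markers and neighboring genes. Of the pathway genes, the plan covered only those with peaks in all libraries of 1 material and none of the other. The other called genes were named in addition to that plan. The members and lists were chosen with earlier results of these data known. Other versions were Python 3.11.15, pandas 2.3.3, pysam 0.24.0, R 4.3.3 and Matplotlib 3.10.9.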

Additional observations from a re-analysis of the deposited data

Results flagged for a closer look

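For 3 genes a single library held the only promoter peak of its material, which sets it far from the other libraries. The ple promoter had 2.13 in wild-type OSC replicate 1 and no peak in the other 3 OSC libraries. The Tdc2 promoter had 2.48 in the same library and no peak in the other 3. The Ddc promoter had 2.81 in vas-GFP ovary replicate 1 and no peak in the other 4 ovary libraries. The limit used is one that about 1 in 20 groups of normally distributed values would pass by chance, but it is passed by any gene with a peak in a single library of its material. Wild-type OSC replicate 1 was the only OSC library with a promoter peak for 2762 of the 15042 genes with one in any OSC library (18.4%), and vas-GFP replicate 1 was the only such ovary library for 166 of 10857 genes (1.53%). Wild-type OSC replicate 1 had the most called peaks, 59420, and vas-GFP replicate 1 had 22557; the part of peak number in these 3 values was not tested.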

How the results depend on the processing

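Fold enrichment is scaled within each library, and an uncalled peak is a limit on what could be seen rather than a measured 0. Among sampled peaks at the background pileup of each library, the lowest value was 1.64 to 2.12 in OSC and 2.08 to 2.69 in ovary libraries. Over all called peaks it was 1.39 to 1.61 in OSC and 1.17 to 1.67 in ovary libraries. The promoter calls (580 genes higher and 4687 lower in OSC) changed to 374 higher with a 0.2 kb window, 337 higher with a −log10 q of at least 10, 377 higher with the same number of peaks per library and 1234 higher with limma. They became 0 and 0 with wild-type OSCs only, w1118 ovaries only, log2 of 1 plus the −log10 q, and percentile ranks in the exact permutation test, where the counts at an unadjusted p below 0.05 were 747 and 5270, 0 and 0, 1686 and 1604, and 3648 and 1067; limma on the main values called 6999 genes. The smallest p was then 0.0476 (wild-type only) and 0.0667 (w1118 only). The pathway counts (4 higher, 15 lower) became 0 and 0 with wild-type OSCs only and w1118 ovaries only, and no pathway gene could be called on the other 2 scales, where no gene passed. OSC-only promoters (432) numbered 278 with the 0.2 kb window and 281 with the stricter q, and ovary-only promoters (123) numbered 256 with the stricter q, 360 with equal peak numbers and 265 with w1118 only. Over genes and flanks, 622 higher became 374 with the stricter q, and 6475 lower became 3090 without promoter peaks. With 1 library left out, the ranges were 0 to 637 higher and 0 to 4917 lower promoters, 0 to 5 and 0 to 13 pathway genes, 444 to 781 OSC-only promoters, 125 to 290 ovary-only promoters, and 0 to 982 higher and 0 to 6753 lower genes with flanks. The most OSC-only promoters came without wild-type OSC replicate 2 and the most ovary-only ones without wild-type OSC replicate 1. Without the ovary peaks of identical borders, a setting added after seeing the data, the gene values reversed for dimm (2.87) and amon (1.19). Where no sentence gives a cause, the cause was not tested.

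The replicate block (w1118 ovaries only) gave 0 higher and 0 lower promoters in the exact permutation test (0 and 0 at an unadjusted p below 0.05), with 9 splits and a smallest p of 0.111, and ple at -1.99. Same-numbered replicates deviated together between Δl(3)mbt and wild-type OSCs (correlation 0.571 over 7248 genes) and not between Δl(3)mbt OSC or wild-type OSC and w1118 ovary (-0.193 and -0.262), and since peak names inside the replicate 2 OSC files carry other numbers, the numbers were not taken as pairs.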
